A study of Mus musculus with 8 samples.

Results

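The Rab genes of the mouse encode small GTPases that mark membranes inside the cell. They were measured on arrays of a thymic epithelial cell line with and without an engineered point mutation in the transcription factor gene Gtf2i. A gene was taken as a member where a probe mapped, through its transcript accession, to a symbol made of Rab, a number and at most a pair of trailing characters. Of 61 such symbols 4 were left out, because Rab3ip is an exchange factor, Rab5if is no GTPase and Rab10os and Rab26os are opposite-strand transcripts. The 57 remaining genes, among 45616 genes and unnamed transcripts on the array, were read by 89 probes.

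All samples were total RNA of TEC71, an immortalized mouse line of medullary thymic epithelial origin, hybridized to single-colour Agilent arrays. The control cells (3 arrays) had been transfected with Cas9n, a nickase form of Cas9, and a single guide RNA. The other arrays carried RNA of cells with a knock-in of Gtf2i T1211A, from clone #1 (3 arrays) and clone #3 (2 arrays). Each knock-in group is therefore 1 cell clone, and a property of a clone and an effect of the mutation cannot be told apart within it. The labels do not say whether arrays of a group came from separate cultures, so the p-values measure the spread between these arrays, which may be technical. Both comparisons with the control use the same 3 control arrays.

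Rab proteins switch between a GTP-bound form that recruits effectors to a membrane and a GDP-bound form that is extracted into the cytosol. Guanine nucleotide exchange factors (GEFs) load GTP, GTPase-activating proteins (GAPs) with a TBC domain promote its hydrolysis, and prenylation with GDP dissociation inhibitors (GDIs) sets the exchange between membrane and cytosol. In thymic epithelium, endosomal and autophagic traffic brings self-antigens to MHC class II molecules for display to developing T cells.

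The 250 bases upstream of the RefSeq start of the 4 Rab genes with the largest differences from control are printed first, from the GRCm38.p6 table. They are written 5′ to 3′ on the strand of the gene, and capitals mark matches, on either strand, to 5 searched motifs, none of which contains another: the E-box CACGTG, the TATA box letters TATAAA, the CCAAT box, the Sp1-type motif GGGCGG and the AP-1 motif TGANTCA. Rab39b (chrX:75578232-75578481, minus strand) was the member with the largest loss of signal. Rab29 (chr1:131867027-131867276, plus strand) was the member with the largest gain. Rab42 (chr4:132303357-132303606, minus strand) and Rab3a (chr8:70754453-70754702, plus strand, the first of 2 listed starts) had the next largest gains.
Rab39b: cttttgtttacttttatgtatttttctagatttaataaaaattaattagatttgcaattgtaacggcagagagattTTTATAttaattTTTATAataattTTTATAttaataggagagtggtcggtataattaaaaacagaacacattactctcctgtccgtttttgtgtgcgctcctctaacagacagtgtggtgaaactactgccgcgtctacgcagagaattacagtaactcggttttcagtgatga
Rab29: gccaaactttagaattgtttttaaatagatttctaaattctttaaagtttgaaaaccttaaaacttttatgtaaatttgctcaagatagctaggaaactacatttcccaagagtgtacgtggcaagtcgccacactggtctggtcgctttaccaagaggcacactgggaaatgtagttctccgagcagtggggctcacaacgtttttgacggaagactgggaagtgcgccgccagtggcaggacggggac
Rab42: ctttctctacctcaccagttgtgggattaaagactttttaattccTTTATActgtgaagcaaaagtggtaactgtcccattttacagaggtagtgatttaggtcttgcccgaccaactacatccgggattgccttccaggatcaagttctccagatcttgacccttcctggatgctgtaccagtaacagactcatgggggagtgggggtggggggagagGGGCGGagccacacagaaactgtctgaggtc
Rab3a: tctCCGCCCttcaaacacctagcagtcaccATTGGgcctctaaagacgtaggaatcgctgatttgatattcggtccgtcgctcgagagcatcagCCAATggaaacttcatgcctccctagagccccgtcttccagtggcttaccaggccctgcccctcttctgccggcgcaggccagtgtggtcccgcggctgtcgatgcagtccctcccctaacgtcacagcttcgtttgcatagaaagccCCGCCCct
The Rab39b window was poor in G and C (31.6%) and held 8 CpG pairs and 3 matches to TATAAA, all on the opposite strand. The Rab29 window had 44.0% G and C, 9 CpG pairs and none of the searched motifs. In the Rab42 window, with 49.2% G and C and 3 CpG pairs, TATAAA and GGGCGG each matched at 1 place. The Rab3a window had 58.8% G and C, 16 CpG pairs, 2 matches to CCAAT and 2 to GGGCGG.

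A level is the log2 of a probe's processed signal minus the log2 of the 75th percentile of its array, so 0 is the brightness of that percentile and each unit is a doubling. Between 55.3% and 59.3% of probes per array were well above background, by the scanner software's own flag, and no spot was saturated. The Gtf2i level was 4.41 in the control, 3.96 in clone 1 and 3.82 in clone 3, with SDs over the arrays of 0.05, 0.07 and 0.03. The differences of -0.46 and -0.59 log2 had limma adjusted p = 0.00754 and 0.00421. Where the Gtf2i probe lies relative to the point mutation was not checked. The label of the line was set against marker genes. Of 20 thymic epithelial markers, 16 were above background on all 8 arrays, among them the keratins Krt5, Krt8, Krt14 and Krt18. The transcription factor Foxn1 was also among them but dim, with a mean level of -3.35 in the control. Psmb11, Ccl21a and Pax1 were above background on no array, and Aire, the regulator of self-antigen expression in the medulla, on 3 arrays. The summed linear signal of the thymic epithelial list ran from 463 to 580 in the control, 506 to 557 in clone 1 and 518 to 574 in clone 3, in units of the 75th percentile. Of 7 T cell markers, 4 were above background on all arrays. These were Cd3e, Cd3d, Cd4 and Lck, with control means of 0.37, -2.64, 0.57 and 0.29. Cd8a and Rag1 were at background on every array. The T cell list's summed signal was 3.88 to 4.56 in the control, 5.57 to 6.58 in clone 1 and 5.58 to 6.59 in clone 3. Of 8 fibroblast markers, 2 were above background on all arrays, Pdgfra and Col1a2, with control means of -0.32 and -2.73. Another 4, among them Pdgfrb and Thy1, were above background on no array. The fibroblast sums were 0.962 to 1.21, 0.466 to 0.625 and 0.481 to 0.557 in control, clone 1 and clone 3. Myeloid markers had 3 of 5 above background on all arrays, Itgam, Csf1r and Cd68, with control means of 2.42, 1.05 and 0.06. Adgre1 and Itgax were above background on no array. The myeloid sums were 7.46 to 10.7, 9.22 to 12.4 and 10.5 to 11.7 in control, clone 1 and clone 3. Endothelial markers had 1 of 4 above background on all arrays, and B cell markers 2 of 3. The part of other cell types in the Rab values was not tested, and in bulk RNA fewer cells of a type and less RNA per cell cannot be told apart.

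More Rab genes were higher than lower in the knock-in clones. Of the 57 genes, 51 had a probe well above background throughout at least 1 group and could be tested, 49 of them on all 8 arrays. In both clones 20 of the 51 rose (39.2%) and 2 fell (3.92%), where a call means a limma adjusted p below 0.05 in each clone with the same sign. Over all 25353 tested genes and unnamed transcripts the same rule called 11.3% higher and 12.2% lower, and over the 14719 with a gene symbol 15.4% and 12.1%. The median Rab difference from control was 0.32 log2 in clone 1 and, in clone 3, 0.36 log2, beside -0.05 and -0.04 over everything tested and 0.00 and 0.02 over genes with a symbol. In clone 1 alone 22 Rab genes rose and 4 fell (14.7% and 16.5% of everything tested), and in clone 3 alone 21 rose and 3 fell (13.3% and 17.0%). On the level of single arrays, all 5 knock-in arrays lay above all 3 controls for 25 of the 51 genes and below them for 4, against 17.4% and 20.9% of everything tested. Of the 14719 genes with a symbol, 3469 lay above and 3095 below. At a change of at least 2-fold in both clones the family had 6 higher genes and 1 lower, where 3.59% and 3.62% of everything tested passed.

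**Figure D1:**
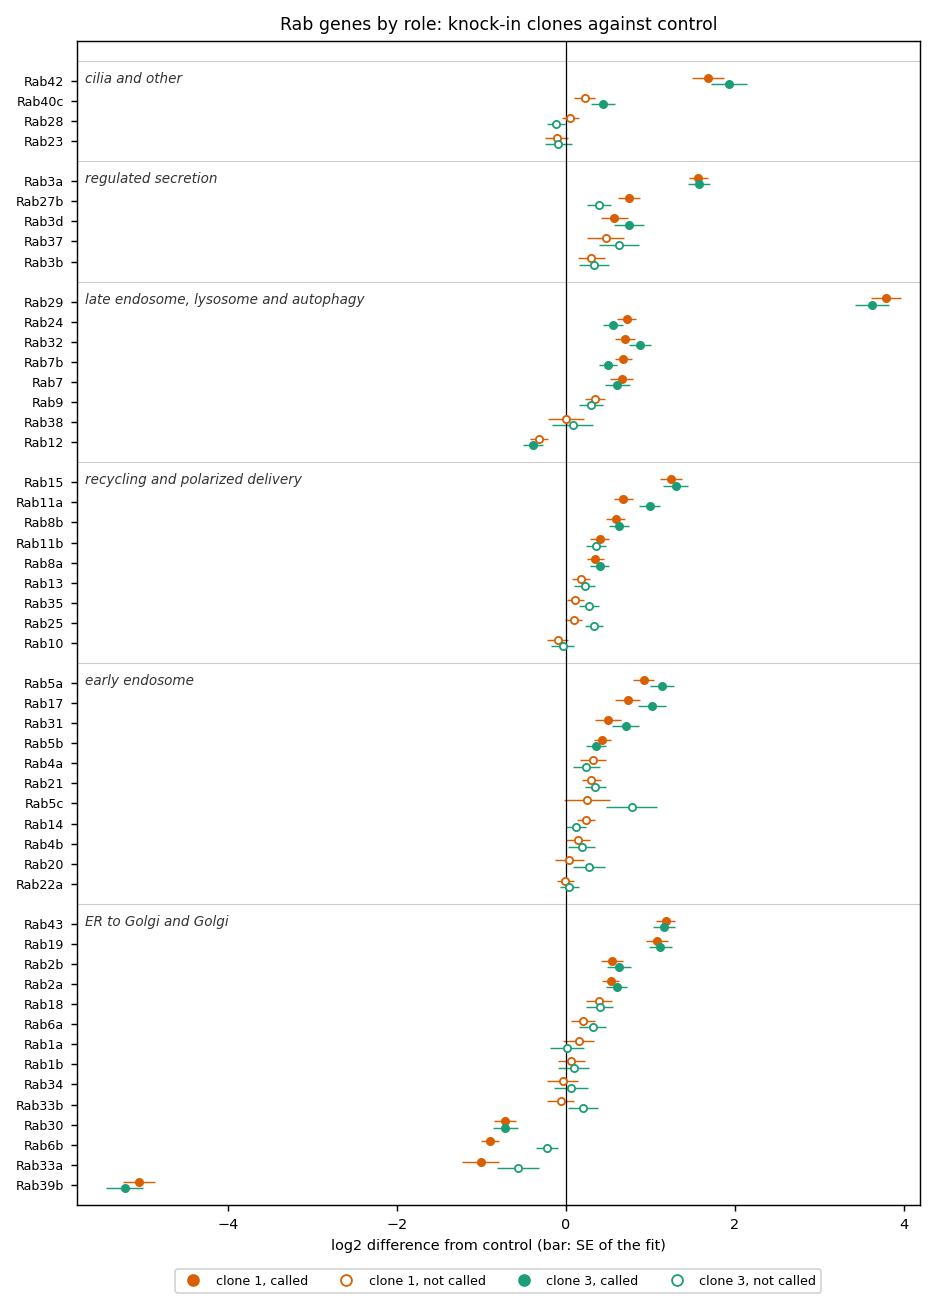
Fitted log2 difference from control (horizontal axis) of the 51 tested Rab genes, grouped by the role of the protein, for clone 1 (orange) and clone 3 (green); filled points passed the adjusted p of 0.05 and bars are the standard error of the fit. Most points lie to the right of 0, with Rab29 at 3.79 and 3.63 and Rab39b at -5.06 and -5.23; for these 2 genes 1 side of the comparison was at background, so the plotted size is not a measured fold.

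Group and position on the slide overlapped in part. The 3 controls and the first clone 1 array lay in row 1 of the slide, and the other knock-in arrays in row 2. With the row as a block, 8 of the 22 genes called in both clones stayed called in both, namely Rab39b, Rab29, Rab42, Rab3a, Rab15, Rab43, Rab5a and Rab11a, and 7 genes were then called higher and 1 lower, where that fit called 3.79% of everything tested higher and 3.96% lower. All 22 kept their sign in that fit. Of the 14 genes that lost a call, 12 kept a difference no more than 1.5 times smaller in both clones, and Rab2a and Rab3d shrank by more. Standard errors of the 14 were larger with the block, by a median of 1.44 times in clone 1 and 1.71 times in clone 3. The blocked clone 1 difference rests on the single clone 1 array of row 1. On it all 22 genes differed from the controls in the same direction as on the other arrays. That array took part in the calls that chose the 22 genes, so neither this nor the kept sign is a separate check. The brightest spike-in signal of that array was 3238, where the others had 18804 to 34228; without this array 19 of the 22 genes stayed called, all but Rab31, Rab5b and Rab8a. Row 2 holds no control. Other processing ended calls as well: normexp background correction those of Rab17 and Rab8a, the mean of all probes of a gene those of Rab17, Rab31, Rab5b and Rab8a, and testing without the filter on dim probes those of Rab31, Rab3d, Rab5b, Rab7, Rab7b and Rab8a, each in 1 or both clones.

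Rab29 and Rab39b differed in whether the transcript was seen at all. Rab29, a Golgi and lysosome Rab that activates the kinase LRRK2, was well above background on all 5 knock-in arrays and on no control array. Its levels were -4.61, -5.15 and -4.52 in the control, -1.16, -0.87 and -0.88 in clone 1, and -1.18 and -1.08 in clone 3. The knock-in arrays stood close together and far above the controls, with no overlap. On the processed signal Rab29 was 13.7-fold higher in clone 1 (adjusted p = 1.77e-06) and 12.4-fold higher in clone 3 (adjusted p = 5.32e-06). For these folds only the first control was raised, from -4.61 to -4.594, the faintest signal called above background on its array. The other controls, at -5.15 and -4.52, already exceeded that signal on their arrays (-5.262 and -5.085) and kept their uncalled readings. The folds are therefore close to the fitted ones and are no guaranteed minimum. The size depends on the processing. With normexp, run on median signals with an offset of 50 added, the fitted difference was smaller. It was 1.59 log2 (3.00-fold) in clone 1 and 1.51 log2 (2.85-fold) in clone 3. Input signal, correction and offset changed together, and which of them matters was not tested. The other Rab29 probe was above background on the same 5 knock-in arrays and no control, at least 14.6-fold higher in clone 1 and 12.2-fold higher in clone 3 on the processed signal.

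Rab39b, an X-linked gene whose human counterpart is mutated in intellectual disability with early-onset parkinsonism, went the opposite way. Its levels were -1.70, -1.69 and -1.57 in the control, -7.15, -6.62 and -6.37 in clone 1, and -7.03 and -6.74 in clone 3. All 3 controls were above background and all 5 knock-in arrays were at background. The fall was at least 9.78-fold in clone 1 (adjusted p = 6.05e-07) and at least 9.32-fold in clone 3 (adjusted p = 1.31e-06), counted on the processed signal down to the lowest signal called above background. With normexp the fitted differences were -1.34 log2 (2.54-fold) and -1.29 log2 (2.44-fold), smaller than these limits. A single probe reads Rab39b. Its closest relative Rab39 was at background on all 8 arrays, with levels between -7.31 and -6.77, and was not tested. The calls of Rab29 and Rab39b held with the row as a block, at adjusted p = 0.000123 and 0.00117 for Rab29 in clones 1 and 3 and 9.09e-06 and 5.57e-05 for Rab39b.

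**Figure D2:**
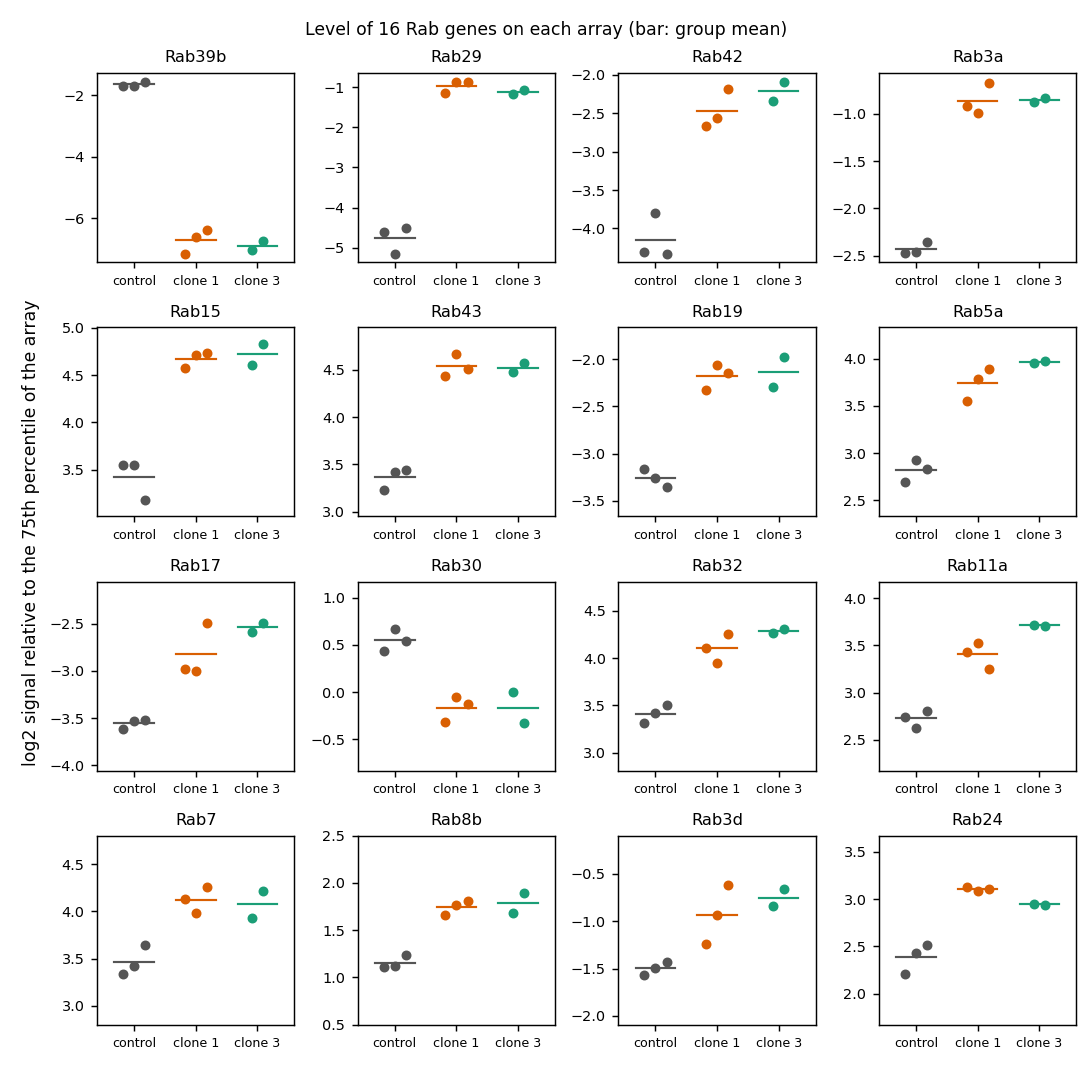
Level (vertical axis, log2 signal relative to the array's 75th percentile, with a separate scale in each panel) of 16 Rab genes on each array of the control, clone 1 and clone 3; points are arrays and bars group means. In all 16 panels the knock-in arrays do not overlap the controls, above them in 14 and below them for Rab39b (-7.15 to -6.37 against -1.70 to -1.57) and Rab30 (-0.33 to 0.00 against 0.44 to 0.67). The genes were chosen as called in both clones, which favours such separation. Of everything tested, 17.4% lay above and 20.9% below in this way.

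Among the Rab proteins of the ER and Golgi, 4 of 14 tested genes rose in both clones and 2 fell, with median differences of 0.11 and 0.14 log2. Rab43, which acts at the Golgi, had levels of 3.23, 3.42 and 3.44 in the control, 4.44, 4.67 and 4.51 in clone 1, and 4.48 and 4.57 in clone 3. Every knock-in array was above the highest control. Rab43 was 2.27-fold higher in clone 1 (1.18 log2, adjusted p = 0.000109, SE 0.11) and 2.24-fold higher in clone 3 (1.16 log2, adjusted p = 0.000278, SE 0.13). Rab19 was dimmer, at -3.16, -3.26 and -3.35 in the control, -2.33, -2.06 and -2.15 in clone 1, and -2.30 and -1.98 in clone 3. It rose by 1.08 log2 in clone 1 (adjusted p = 0.000413, SE 0.13) and 1.12 log2 in clone 3 (adjusted p = 0.000752, SE 0.14), again without overlap, and its clone 3 call was lost with the row block (0.89 log2, adjusted p = 0.0644). With normexp the clone 3 difference was 0.48 log2, and it passed. Rab2a and Rab2b, paralogs that act between ER and Golgi, rose by 0.53 and 0.55 log2 in clone 1 and by 0.60 and 0.63 log2 in clone 3. With the row block neither passed in either clone (adjusted p from 0.0998 to 0.254), at 0.54 and 0.61 log2 for Rab2b, about as large, and 0.39 and 0.38 log2 for Rab2a.

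Rab30, another Golgi Rab, was the second gene to fall in both clones. Its levels were 0.44, 0.67 and 0.54 in the control, -0.32, -0.05 and -0.13 in clone 1, and 0.00 and -0.33 in clone 3. All controls lay above all knock-in arrays. It fell by 0.72 log2 in clone 1 (adjusted p = 0.00377, SE 0.13) and by 0.72 log2 in clone 3 (adjusted p = 0.00714, SE 0.15), and the clone 3 call missed the threshold with the row block (-0.95 log2, adjusted p = 0.0552) and without the second clone 3 array. Rab6b and Rab33a passed in clone 1 only. Rab6b, the Golgi Rab of the retrograde route that is most abundant in brain, had levels of 0.22, 0.14 and 0.23 in the control, -0.77, -0.60 and -0.75 in clone 1, and 0.10 and -0.17 in clone 3. Clone 1 stood below the other groups and clone 3 close to the control. The difference was -0.90 log2 in clone 1 (adjusted p = 0.000499) and -0.23 log2 in clone 3 (adjusted p = 0.201). Rab33a was at -1.01 log2 in clone 1 (adjusted p = 0.00923) and -0.57 log2 in clone 3 (adjusted p = 0.119). Rab1a, Rab1b, Rab6a, Rab18, Rab33b and Rab34 passed in neither clone, at -0.06 to 0.39 log2 in clone 1 and 0.01 to 0.40 log2 in clone 3.

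Early endosomal Rab genes gave 4 rises and no fall among 11 tested, with medians of 0.30 and 0.35 log2. Rab5a, a regulator of early endosome fusion, had levels of 2.69, 2.93 and 2.83 in the control, 3.55, 3.78 and 3.89 in clone 1, and 3.95 and 3.97 in clone 3. All knock-in arrays were above all controls. The rise was 0.92 log2 in clone 1 (adjusted p = 0.000715, SE 0.12) and 1.14 log2 in clone 3 (adjusted p = 0.000497, SE 0.14), and it passed with the row block too (adjusted p = 0.0185 and 0.0474). Its paralog Rab5b rose less, by 0.43 and 0.36 log2. Rab5c had levels of 3.01, 3.05 and 2.27 in the control, 3.28, 2.51 and 3.30 in clone 1, and 3.60 and 3.51 in clone 3. The groups overlapped between control and clone 1, and the differences of 0.25 and 0.78 log2 did not pass (adjusted p = 0.533 and 0.0848).

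Rab17, a Rab of polarized epithelial transport, was dim, at -3.62, -3.53 and -3.52 in the control, -2.98, -3.00 and -2.49 in clone 1, and -2.59 and -2.49 in clone 3. Its rise was 0.73 log2 in clone 1 (adjusted p = 0.00633, SE 0.15) and 1.02 log2 in clone 3 (adjusted p = 0.00253, SE 0.17), without overlap. The other Rab17 probe gave differences of 0.04 and 0.62 log2. Rab31, which works between the trans-Golgi network and endosomes, rose by 0.50 and 0.71 log2, but its second probe was at 0.30 and -0.05 log2. With normexp Rab17 was at 0.21 log2 (adjusted p = 0.186) and 0.28 log2 (adjusted p = 0.119), and with the mean of its probes at 0.39 log2 in clone 1 (adjusted p = 0.0548). With the row block Rab17, Rab31 and Rab5b passed in neither clone (adjusted p from 0.086 to 0.441), at 0.57 and 0.78 log2 for Rab17, 0.62 and 0.90 log2 for Rab31 and 0.39 and 0.30 log2 for Rab5b. Rab4a, Rab4b, Rab14, Rab20, Rab21 and Rab22a did not pass in either clone.

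In the recycling and polarized delivery group 4 of 9 tested genes rose in both clones, with medians of 0.35 and 0.36 log2. Rab15, which acts in endocytic recycling, had levels of 3.55, 3.55 and 3.18 in the control, 4.58, 4.71 and 4.73 in clone 1, and 4.61 and 4.83 in clone 3. The knock-in arrays were all above the controls, the third of which was the lowest. It was 2.37-fold higher in clone 1 (1.25 log2, adjusted p = 0.000226, SE 0.13) and 2.45-fold higher in clone 3 (1.30 log2, adjusted p = 0.000414, SE 0.15). Its other probe gave smaller differences of 0.61 and 0.42 log2. Rab11a, the Rab of the recycling endosome, had levels of 2.74, 2.63 and 2.81 in the control, 3.43, 3.53 and 3.25 in clone 1, and 3.72 and 3.70 in clone 3. It rose by 0.68 log2 in clone 1 (adjusted p = 0.0023, SE 0.11) and 0.99 log2 in clone 3 (adjusted p = 0.000677, SE 0.13), with no overlap with the control.

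The Rab11a paralog Rab11b had levels of 2.69, 2.85 and 2.98 in the control, 3.26, 3.24 and 3.22 in clone 1, and 3.22 and 3.18 in clone 3. All its knock-in arrays were above the controls, but only clone 1 passed (0.40 log2, adjusted p = 0.0227, against 0.36 log2 and 0.0531 in clone 3). Its other probes were at 0.01 and 0.66 log2 in clone 1 and at 0.43 and 0.62 log2 in clone 3. Rab8b, a paralog of Rab8a in delivery to the plasma membrane, had levels of 1.11, 1.12 and 1.24 in the control, 1.66, 1.77 and 1.81 in clone 1, and 1.68 and 1.89 in clone 3. It rose by 0.59 log2 (adjusted p = 0.00375, SE 0.11) and 0.63 log2 (adjusted p = 0.00524, SE 0.12). Rab8a rose by 0.35 and 0.40 log2, the smallest of the 20 rises in clone 1. With the row block neither passed in either clone (adjusted p from 0.0669 to 0.21), at 0.40 and 0.47 log2 for Rab8a and 0.50 and 0.49 log2 for Rab8b. Rab10, Rab13, Rab25, a Rab11 relative found in epithelia, and Rab35 were uncalled, at -0.10 to 0.18 log2 in clone 1 and -0.04 to 0.33 log2 in clone 3.

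Late endosomal, lysosomal and autophagic Rab genes had the highest share of rises, 5 of 8 in both clones (62.5%), with medians of 0.67 and 0.53 log2. Over all tested genes with a symbol 15.4% rose in both. The roles were chosen with earlier results of these data known, and Rab29, also a Golgi Rab, was counted here. Whether the role groups differ was not tested. Apart from Rab29 the genes that rose were Rab7, Rab7b, Rab24 and Rab32. Rab7, which directs late endosomes to lysosomes, had levels of 3.34, 3.42 and 3.64 in the control, 4.13, 3.98 and 4.26 in clone 1, and 3.93 and 4.22 in clone 3. The groups did not overlap, and the first clone 3 array was the nearest to the controls. The rise was 0.66 log2 (adjusted p = 0.0066, SE 0.14) in clone 1 and 0.61 log2 (adjusted p = 0.0164, SE 0.15) in clone 3, and a second probe gave 0.71 and 0.82 log2. Rab7b, which acts from late endosomes to the Golgi, rose by 0.68 and 0.50 log2.

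Rab32, known for traffic to melanosomes and other lysosome-related organelles, had levels of 3.31, 3.42 and 3.50 in the control, 4.11, 3.95 and 4.26 in clone 1, and 4.27 and 4.31 in clone 3. It rose by 0.70 log2 (adjusted p = 0.00228, SE 0.12) and 0.88 log2 (adjusted p = 0.00141, SE 0.13). Its partner in that route, Rab38, overlapped between groups, with differences of 0.00 and 0.08 log2. Rab24, linked to autophagy, had levels of 2.21, 2.43 and 2.51 in the control, 3.13, 3.09 and 3.11 in clone 1, and 2.95 and 2.94 in clone 3. It rose by 0.72 log2 (adjusted p = 0.0014, SE 0.11) and 0.56 log2 (adjusted p = 0.00923, SE 0.12). Rab7 lost both calls with the row block (adjusted p = 0.0657 and 0.221) at differences about as large, 0.66 and 0.62 log2. Rab7b, Rab24 and Rab32 lost the clone 3 call (adjusted p = 0.283, 0.151 and 0.0592), at 0.39, 0.59 and 0.89 log2. Rab12 passed in clone 3 only, at -0.39 log2 (adjusted p = 0.042) against -0.32 log2 in clone 1 (adjusted p = 0.0553). A dimmer Rab12 probe was at 0.02 log2 in clone 1 and -0.06 log2 in clone 3. Rab9 was uncalled.

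Of 5 tested genes of regulated secretion, Rab3a and Rab3d rose in both clones. Rab3a, the Rab of synaptic and other secretory vesicles, had levels of -2.47, -2.46 and -2.36 in the control, -0.92, -0.99 and -0.67 in clone 1, and -0.87 and -0.83 in clone 3. Replicate arrays lay close together, and the knock-in arrays were all far above the controls. The gene was 2.97-fold higher in clone 1 (1.57 log2, adjusted p = 2.38e-05, SE 0.11) and 2.99-fold higher in clone 3 (1.58 log2, adjusted p = 5.56e-05, SE 0.13), and passed with the row block (adjusted p = 0.00128 and 0.00835). With normexp it was 1.97-fold and 1.98-fold higher. Its paralog Rab3d had levels of -1.57, -1.49 and -1.43 in the control, -1.24, -0.93 and -0.62 in clone 1, and -0.84 and -0.66 in clone 3. The lowest clone 1 array, that of row 1, was the nearest to the control. Rab3d rose by 0.57 log2 (adjusted p = 0.0265, SE 0.16) and 0.75 log2 (adjusted p = 0.014, SE 0.18), which the row block reduced to 0.26 and 0.28 log2 (adjusted p = 0.385 and 0.524). Rab3b, with 0.30 and 0.33 log2, was uncalled, and Rab3c was at background on all arrays.

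Rab27b, which docks secretory granules and exosomes, passed in clone 1 only (0.75 log2, adjusted p = 0.00276, against 0.39 log2 and 0.075 in clone 3), and a second Rab27b probe was at -0.06 and -0.22 log2. Rab27a was above background on 2 of 3 clone 1 arrays and nowhere else, with levels of -6.09, -7.06 and -6.75 in the control, -5.81, -4.11 and -3.92 in clone 1, and -5.17 and -4.83 in clone 3, and was not tested. Its other probe was at background on all arrays. Rab37 was uncalled, at 0.47 and 0.63 log2.

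Among the remaining genes 1 of 4 rose in both clones. Rab42 had levels of -4.31, -3.80 and -4.33 in the control, -2.66, -2.56 and -2.18 in clone 1, and -2.34 and -2.09 in clone 3. All 5 knock-in arrays were above the controls. It was 3.21-fold higher in clone 1 (1.68 log2, adjusted p = 0.000271, SE 0.19) and 3.81-fold higher in clone 3 (1.93 log2, adjusted p = 0.000285, SE 0.21), and passed with the row block (adjusted p = 0.00933 and 0.032). With normexp it was 1.41-fold and 1.63-fold higher, and passed. A second probe, above background on 1 of 3 control arrays, had a fitted 1.75 log2 in each clone. Rab40c, of the Rab40 group that joins ubiquitin ligase complexes, passed in clone 3 only (0.44 log2, adjusted p = 0.042, against 0.22 log2 and 0.221 in clone 1). A dimmer Rab40c probe was above background on 2 of 3 control arrays and on all knock-in arrays. Its fitted differences were larger, 1.11 log2 in clone 1 and 1.1 log2 in clone 3. Rab40b was above background on 1 array, the clone 1 array of row 1, at -2.64, with the other arrays at -7.14 to -6.50, and was not tested. Rab23, which restrains Hedgehog signalling, and Rab28 were uncalled.

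Taken over the family, 23 of the 51 genes passed in neither clone, 4 in clone 1 only and 2 in clone 3 only, and of the 6 untested genes 4 (Rab3c, Rab9b, Rab26 and Rab39) were above background on no array. Passing in 1 clone does not show a difference between the clones. Tested directly with limma, clone 3 against clone 1 called 0 Rab genes, where 0.0749% of everything tested (19 genes and transcripts) was called. At an unadjusted p below 0.05 there were 3, Rab6b, Rab11a and Rab27b, and the smallest adjusted p was 0.135, for Rab6b, at 0.67 log2. With 3 and 2 arrays a clone, the number of arrays limits what could be detected.

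Different probes of a gene gave a check within the arrays, but they read the same RNA and so do not repeat the difference. Of the 22 genes called in both clones 14 had more than 1 probe, and for 13 every other probe had the same sign in both clones, Rab31 in clone 3 being the exception. Such agreement was not limited to called genes. Among the other tested genes with more than 1 probe, Rab12, Rab13, Rab23, Rab27b and Rab28 differed in sign in at least 1 clone, and the rest agreed. The sizes differed for some genes, as given above for Rab15 and Rab17. The Rab43 probes were close, with 1.09 and 0.92 log2 on the second probe beside 1.18 and 1.16 log2. The other probe of Rab3a was at background on all controls and above it on the 5 knock-in arrays, at least 1.78-fold and 1.89-fold higher. Probe sequences were not used here, so cross-reading between paralogs such as Rab5a and Rab5c was not checked.

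**Figure D3:**
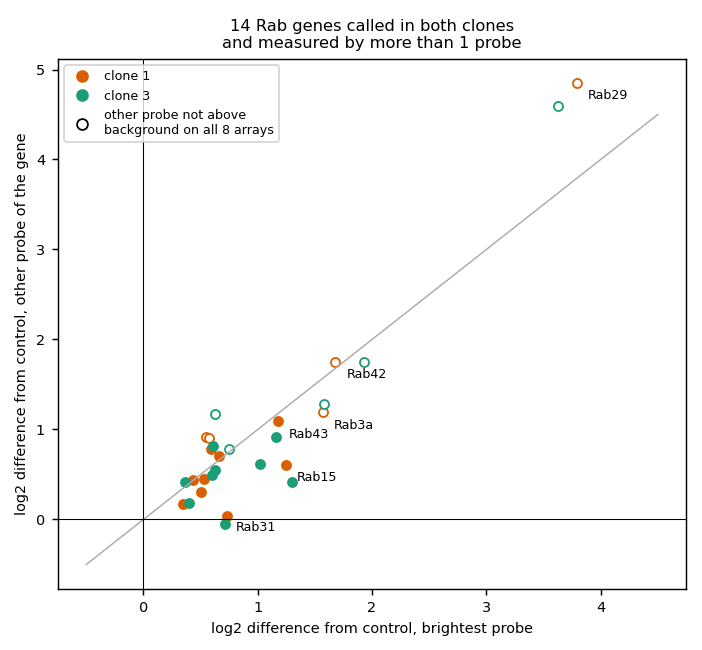
Fitted log2 difference from control on the brightest probe (horizontal axis) and on the other probe (vertical axis) for the 14 Rab genes called in both clones with more than 1 probe, in clone 1 (orange) and clone 3 (green); the grey line marks equal values and open points are other probes not above background on all 8 arrays, whose plotted size is not a measured fold where the controls were at background. Nearly all points lie above 0 on both axes; Rab31 in clone 3 is at 0.71 and -0.05.

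Genes that act on Rab proteins were counted from lists. GEFs had 7 of 38 tested genes higher in both clones (18.4%) and 4 lower (10.5%), beside 15.4% and 12.1% of all genes with a symbol, with medians of 0.11 and 0.14 log2. The 4 with the largest smaller fold were Rab3il1 (a fitted 2.16 log2 in each clone, SE 0.40 and 0.45, which is uncertain since it was above background on only 1 of 3 control arrays), Rpgr (1.84 and 1.76 log2), Rin3 (1.14 log2 in each) and Dennd2a, which fell by 2.03 and 1.66 log2. Rab3il1 is an exchange factor related to Rab3ip, and Rin3 acts on Rab5 proteins. Chosen after their values were seen, Rin1, another Rab5 exchange factor, was at -0.88 and -0.86 log2, and Rab3ip, which activates Rab8 proteins, at 0.71 and 0.81 log2. Mon1b, chosen likewise, a subunit of the Rab7 exchange factor, was at 0.41 and 0.63 log2. Mon1a and Ccz1, of the same exchange factor, were uncalled, at -0.16 and -0.03 log2 in clone 1 and -0.17 and -0.01 log2 in clone 3. With the row block Rab3il1, Rab3ip and Mon1b lost a call (clone 3 adjusted p = 0.151, 0.0951 and 0.333), and Rpgr, Rin3, Dennd2a and Rin1 kept theirs.

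The list of TBC-domain genes had 9 of 37 higher (24.3%) and 2 lower (5.41%), with medians of 0.10 and 0.08 log2. Whether each listed protein acts as a GAP was not checked. Tbc1d5, a Rab7 GAP tied to retromer, rose by 1.06 and 1.12 log2, Tbc1d17 by 1.02 and 0.95 log2, Sgsm3 by 0.95 and 1.00 log2 and Tbc1d23 by 0.90 and 0.82 log2. Tbc1d17 kept both calls with the row block, while Tbc1d5, Sgsm3 and Tbc1d23 lost the clone 3 call (adjusted p = 0.0733, 0.0831 and 0.074) at 0.96, 0.95 and 0.72 log2. The prenylation and GDI list had 3 of 16 higher (18.8%) and 1 lower (6.25%), with medians of 0.11 and 0.04 log2. Yipf4 rose by 0.84 and 0.88 log2, Rabac1, a prenylated Rab acceptor, by 0.70 and 0.61 log2 and Chm, the Rab escort protein that presents Rab proteins for prenylation, by 0.54 and 0.46 log2, while Yipf6 fell by 0.74 and 0.92 log2. None of these 4 kept both calls with the row block (clone 3 adjusted p from 0.0507 to 0.466), at 0.66, 0.82, 0.28 and -1.18 log2 in clone 3 for Yipf4, Rabac1, Chm and Yipf6.

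Rab effectors and related genes had 12 of 59 higher (20.3%) and 5 lower (8.47%), with medians of 0.02 and -0.07 log2. Tbkbp1, an adaptor of the kinase TBK1 that is loosely placed in this list, rose by 3.54 and 4.47 log2. Bicd1, a dynein adaptor that binds Rab6, was at background on all controls and was 2.41-fold higher in clone 1 and 3.25-fold higher in clone 3. The second control, at -4.99, exceeded the faintest signal called above background on its array (-5.262) and kept its uncalled reading. The Bicd1 folds are therefore no guaranteed minimum. Ica1, a Rab2 effector, fell by 2.66 and 1.48 log2, and Plin3, also known as a Rab9-binding protein, rose by 1.49 and 1.04 log2. Lrrk2, the kinase that Rab29 activates, was at 0.44 and 0.58 log2 (adjusted p = 0.0122 and 0.00605) and its relative Lrrk1 at -0.60 and -0.56 log2, both chosen after their values were seen. Tbkbp1 and Ica1 kept both calls with the row block. Bicd1 and Plin3 lost the clone 3 call (adjusted p = 0.0554 and 0.0506), and Lrrk2 and Lrrk1 passed in neither clone (adjusted p from 0.105 to 0.348).

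Arf and Arl genes, another family of small GTPases in membrane traffic, had 7 of 24 higher (29.2%) and 1 lower (4.17%) in both clones, with medians of 0.28 and 0.43 log2, Arl10 rising by 0.86 and 0.82 log2 and Arl4c falling by 0.82 and 0.84 log2. Of 7 tested Rab-like genes Rabl3 rose by 0.37 and 0.53 log2 and Ift22 fell by 0.57 and 0.49 log2. Arl4c kept both calls with the row block, Arl10 lost that of clone 3 (adjusted p = 0.125), and Rabl3 and Ift22 passed in neither clone (adjusted p from 0.0757 to 0.249). Whether the families differ was not tested.

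**Figure D4:**
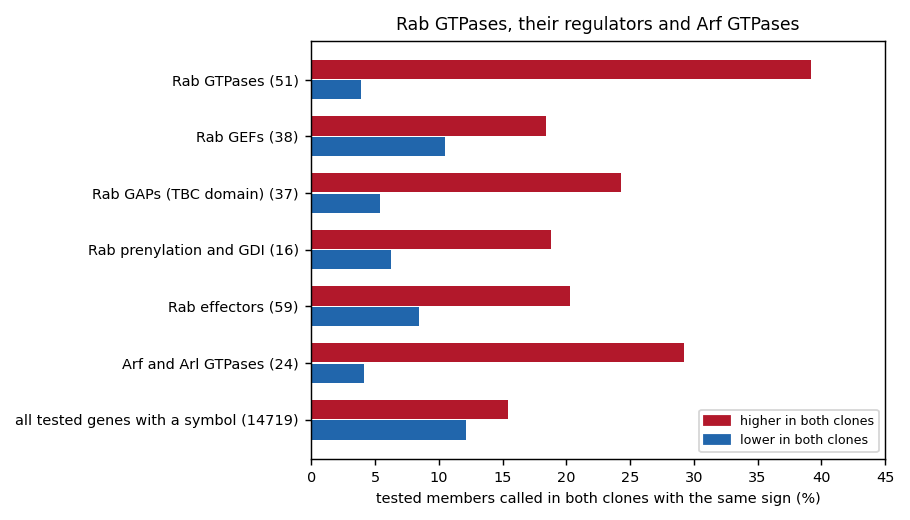
Percent of tested genes called higher (red) or lower (blue) in both clones (horizontal axis) for the Rab family, the lists of its regulators and effectors, the Arf family and all 14719 tested genes with a symbol; the number tested is in brackets. The Rab bars are at 39.2% and 3.92%, those of all genes with a symbol at 15.4% and 12.1%.

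The promoter windows of the family were searched for the letters of 5 motifs on both strands. RefSeq windows matched 48 of the 57 genes, 60 windows in all, and 27 windows belonged to 19 of the 22 genes called in both clones. The Sp1-type motif GGGCGG was in 66.7% of the Rab windows and 55.6% of the windows of called genes, against 32.7% of 32851 windows of all genes. CCAAT was in 40.0%, 33.3% and 33.8% of them, and the E-box CACGTG in 8.33%, 3.70% and 6.02%. TATAAA was in 6.67%, 11.1% and 12.4%, and the AP-1 motif TGANTCA in 3.33%, 3.70% and 6.75%. Median G and C content was 60.2% in Rab windows, 58.0% in those of called genes and 52.4% in all, with a median of 15, 14 and 6 CpG pairs. A gene with several starts counts once per start, and a match of letters does not show a bound factor. The windows of Rab39b and Rab29, at 31.6% and 44.0% G and C, lay below the medians.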

How the data were processed

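Total RNA of 8 samples was labelled with a single dye and hybridized to Agilent 8x60K arrays. The deposited values are processed signals, background-corrected fluorescence intensity; the submitters' processing notes name Agilent Feature Extraction 11.5.11. Each array holds 62976 spots, of which 3671 are controls. Flagged spots (114 to 242 per array) were left out, spots of a probe were averaged, and log2 signals were scaled to the array's 75th percentile, which was 268 to 377. Probes were named through transcript accessions and RefSeq. The brightest probe stood for a gene, and a gene was tested where all arrays of 1 or more groups read it well above background. limma 3.58.1 in R 4.3.3 fitted the 3 groups together (5 residual and 3.38 prior degrees of freedom, two-sided, Benjamini-Hochberg over 25353). The fit was tested on simulated data.

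Folds against a group at background are called lower bounds. In that group, readings dimmer than the faintest signal called above background on their array (-5.448 to -4.564 log2) were raised to it. Brighter readings were kept. Where uncalled readings stayed above that floor, as on the main Rab29 probe and for Bicd1, the fold is no guaranteed minimum. Array values are given for up to 16 genes called in both clones, ranked by the smaller fold, and for their paralogs, with up to 4 genes per regulator list. The members, roles and lists were chosen with earlier results of these data known. Alternatives were normexp on median signals, quantile and median scaling, other filters, the mean of probes, a variance trend, the array row as a block, other adjustments and each array left out; fits within a row were added after seeing the data. All arrays share 1 slide and 1 scan time, so neither could be a block. Motif counts used the RefSeq GRCm38.p6 windows.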

Additional observations from a re-analysis of the deposited data

How the results depend on the processing

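No paired analysis was possible because the labels give the groups no shared replicate numbers. Among the called Rab genes and the counts of calls, no result reversed under any alternative. This does not cover the regulator, effector, Arf, marker and neighbour values. The 22 Rab genes called in both clones kept those calls under quantile and median scaling, a variance trend and adjustment over genes with a symbol; normexp kept 20, the mean of all probes 18 and no filter 16, and the 20 that passed a filter on all 8 arrays kept theirs.

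With the array row as a block, 7 Rab genes were higher and 1 lower in both clones, 12 higher in clone 1, and in clone 3 again 7 and 1, with 4349 and 2068 genes and transcripts called in clones 1 and 3 (7896 and 7669 without it). At an adjusted p of 0.01, 13 Rab genes were higher in both clones and 13 in clone 3, with 4714, 4325 and 11 genes and transcripts called in clone 1, clone 3 and between clones. Without a filter, clone 3 had 5103 and the clones differed in 7. Between clones, where 19 were called, normexp gave 46, the variance trend 62, adjustment over symbols 40, and row 2 alone 0. Row 1 alone, added after seeing the data, sets the 1 clone 1 array with the low spike-in signal against 3 controls, assumes that it varies like them, and gave 10 higher Rab genes in clone 1 and 3598 genes and transcripts. Normexp reduced the folds of Rab29, Rab39b, Rab42, Rab3a, Rab17 and Rab19 by over 1.5 times in at least 1 clone. The causes were not tested.

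Leaving out single arrays gave 14 to 18 Rab genes higher in both clones, 18 to 22 in clone 1 and 14 to 20 in clone 3, and always 2, always 4, and 2 to 3 lower. Genes and transcripts called then ran from 6193 to 7778, from 5059 to 7444 and, between clones, from 9 to 172 (Rab genes 0 each time). The lowest clone 3 count, 5059, came without the second clone 3 array, which also left 15 of the 22 Rab genes called. Calls lost without 1 array were among Rab2b, Rab30, Rab31, Rab3d, Rab5b, Rab7, Rab7b and Rab8a. Signal over background limits the dimmest genes: the Rab42 control mean was -4.15, and the lowest signal called above background ran from -5.448 to -4.564 between arrays.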

Other observations

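The RefSeq order places Slc41a1 and Nucks1 beside Rab29, and Vbp1 and 4933407K13Rik beside Rab39b; these neighbours were looked at after the Rab values were seen. Slc41a1, a magnesium transporter, was at 0.34 log2 in clone 1 (limma adjusted p = 0.0595) and 0.43 log2 in clone 3 (adjusted p = 0.0382), and Nucks1 at 0.08 and 0.34 log2 (adjusted p = 0.784 and 0.233). Vbp1, a subunit of the chaperone prefoldin, was at 0.16 and 0.34 log2 (adjusted p = 0.554 and 0.235), and 4933407K13Rik fell by 0.88 and 1.25 log2 (adjusted p = 0.00276 and 0.000944). The differences of these neighbours were smaller than those given on the processed signal for Rab29 (3.78 and 3.63 log2) and than the lower bounds for Rab39b (-3.29 and -3.22 log2).

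Genes that carry a Rab symbol but were left out of the family included Rab5if, which rose by 0.48 and 0.46 log2 (adjusted p = 0.00747 and 0.0168), and the opposite-strand transcript Rab26os, which fell by 0.45 and 0.53 log2 (adjusted p = 0.0245 and 0.0211), while Rab26 itself was at background on all arrays.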
